A study of Mus musculus with 9 samples.

Results

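The cytosolic ribosomal protein genes were taken here as the protein-coding mouse genes whose symbol is Rpl or Rps followed by a number and, where present, a, l, x or y letters, together with Rplp0, Rplp1, Rplp2 and Rpsa. The rule used gene names alone and found 82 genes among 21887 protein-coding genes on chromosomes 1 to 19, X and Y of the RefSeq annotation of GRCm38.p6. They comprised 43 genes of the large subunit, 30 of the small subunit, 3 of the P stalk and 6 paralogues with an l in their name. Open chromatin was mapped by ATAC-seq, in which a transposase inserts sequencing adapters into accessible DNA. All libraries came from B16, a mouse melanoma line, or a derivative of it, grown as tumours in mice that were taken on day 15 and sorted. Res499 (3 libraries) is a checkpoint blockade resistant strain of B16 origin with no treatment, and the labels do not say whether it is a single clone. B16_IFNg (3 libraries) is B16 exposed chronically to interferon gamma before the injection, for 2 weeks in replicates 1 and 2 and for 3 weeks in replicate 3. B16_untreated (3 libraries) is B16 with no treatment, and serves as the control of both other groups. The labels do not say whether replicates came from separate mice, so every p-value below measures only the spread between these libraries.

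Ribosomal proteins fold and hold the ribosomal RNA of the 2 subunits of the cytosolic ribosome. The small subunit reads the messenger RNA, the large subunit joins the amino acids, and the P stalk, a flexible arm of the large subunit, recruits the factors that drive translation. Their genes are transcribed in nearly every cell, usually from short promoters without a TATA box, and many begin with a stretch of pyrimidines at the transcription start (the TOP element) through which growth signals control the translation of their messenger RNAs. The question addressed here was which of these promoters were open in each library, how high their peaks ranked, and whether that differed between the groups.

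The sequences of 9 promoters stand first, as the results return to them. The peaks of Rps21, Rpl37 and Rpl31 ranked high in every library. At Rpl26, Rpl22, Rps10 and Rps25 the libraries of 1 group all stood above or below the 6 others. Rps4x had no peak within the list cut set out below in any library, and Rpl11 had one in 3 libraries. Each sequence is the 120 bases before a start listed by RefSeq on GRCm38.p6, given from 5′ to 3′ on the strand of the gene. Capitals mark matches, on either strand, to CCGGAAG (the core bound by ETS factors), GGGCGG (the GC box) or TCGCGAG (the CGCG element). They lie at chr2:180257259-180257378 (Rps21), chr15:5116493-5116612 (Rpl37), chr1:39367731-39367850 (Rpl31), chr11:68901446-68901565 (Rpl26), chr4:152325606-152325725 (Rpl22) and chr9:44407594-44407713 (Rps25) on the plus strand. On the minus strand are chr17:27635245-27635364 (Rps10), chrX:102189392-102189511 (Rps4x) and chr4:136053394-136053513 (Rpl11).
Rps21: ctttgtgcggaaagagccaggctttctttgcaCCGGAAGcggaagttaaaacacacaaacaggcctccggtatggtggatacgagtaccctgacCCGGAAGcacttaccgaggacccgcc
Rpl37: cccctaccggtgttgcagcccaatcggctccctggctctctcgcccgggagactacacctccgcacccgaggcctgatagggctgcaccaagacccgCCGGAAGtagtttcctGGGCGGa
Rpl31: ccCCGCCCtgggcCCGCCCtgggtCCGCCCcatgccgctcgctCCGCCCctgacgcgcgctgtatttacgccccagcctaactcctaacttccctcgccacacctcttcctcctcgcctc
Rpl26: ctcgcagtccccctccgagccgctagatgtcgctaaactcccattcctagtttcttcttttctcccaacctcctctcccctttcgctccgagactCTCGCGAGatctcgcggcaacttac
Rpl22: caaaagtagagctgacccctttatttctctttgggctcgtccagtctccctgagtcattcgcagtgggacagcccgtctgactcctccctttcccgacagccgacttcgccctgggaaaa
Rps10: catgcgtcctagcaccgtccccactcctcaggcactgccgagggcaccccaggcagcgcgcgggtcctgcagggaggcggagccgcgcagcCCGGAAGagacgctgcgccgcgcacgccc
Rps25: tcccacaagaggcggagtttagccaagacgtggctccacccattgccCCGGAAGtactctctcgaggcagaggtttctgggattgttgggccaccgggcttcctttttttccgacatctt
Rps4x: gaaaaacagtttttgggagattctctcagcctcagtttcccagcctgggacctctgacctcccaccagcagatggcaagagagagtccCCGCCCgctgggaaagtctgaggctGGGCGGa
Rpl11: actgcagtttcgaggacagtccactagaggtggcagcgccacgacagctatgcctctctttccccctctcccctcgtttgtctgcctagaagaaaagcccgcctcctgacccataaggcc

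Each library has its own deposited peak list, with 9221 to 25374 peaks of a median width of 289 to 517 bp. A longer list holds weaker peaks, so each was cut to its 9214 most significant, the length of the shortest list (called used peaks from here on). The used peak nearest the top of the list within 1 kb of either annotated end of a gene gave the gene a rank score, which is 100 for the most significant peak of the library, falls evenly with rank, and is 0 where there is no used peak. The score compares positions within lists and is no amount of open chromatin, and in sorted bulk cells a site open in fewer cells and a site less open per cell cannot be told apart. The least significant used peak had a −log10 p between 4.92 and 16.4, so a score of 0 in the longer lists can hide a called peak, and reads per library are not given. The shortest deposited peak was at least 150 bp in Res499 replicate 3, B16_IFNg replicate 3 and B16_untreated replicates 1 and 3 and shorter in the others. This split was read from the peak lists and is not given by the labels. The main test below has no term for it, and an alternative fit has one. Of 8 melanocyte lineage genes, Mitf and Pmel had a used peak in all 9 libraries, Sox10 and Mlana in none, and 2 to 5 of the 8 had one in each library. Of 6 leukocyte genes only Spi1 had a used peak, in 1 library (Res499 replicate 2), and the 3 endothelial and 2 keratinocyte genes had none. Of 3 fibroblast genes Col1a1 had a used peak in Res499 replicate 3 (rank score 26.7) and B16_IFNg replicates 2 and 3 (21.3 and 1.899) and in no B16_untreated library, and Pdgfra and Dcn had none. The part of these markers in the results was not tested.

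Ribosomal protein genes had a used peak about as often in each of the groups. Of the 82 genes, 57, 59 and 59 had one in the Res499 libraries, 59, 57 and 54 in the B16_IFNg libraries, and 61, 46 and 56 in the B16_untreated libraries. The 3 groups overlapped, and the lowest and the highest library both belonged to B16_untreated. As shares this was 71.1% ± 1.41 in Res499, 69.1% ± 3.07 in B16_IFNg and 66.3% ± 9.31 in B16_untreated (SD, n = 3 each), against 33.6% ± 1.08, 33.5% ± 0.977 and 32.9% ± 0.601 of all coding genes in the same 3 groups. An exact permutation test of 3 libraries against 3 cannot go below p = 0.1, so no p is given for these shares. Without B16_untreated replicate 2 the mean of that group was 58.5 genes. In the libraries with the longer shortest peaks the count was 59 in Res499, 54 in B16_IFNg, and 61 and 56 in B16_untreated; in the other libraries it was 57 and 59 in Res499, 59 and 57 in B16_IFNg, and 46 in B16_untreated.

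Once a promoter had a peak, that peak ranked in the middle of the list. The median rank score of the ribosomal protein genes with a used peak was 48.9 ± 2.47 in Res499, 48.5 ± 1.98 in B16_IFNg and 47.1 ± 13.2 in B16_untreated (SD, n = 3 each), against 58.0, 57.6 and 57.4 for all coding genes with a used peak. In B16_untreated replicate 1 the median of the ribosomal protein genes, 62.2, was above that of all coding genes, 57.4; in the other 8 libraries it was below. Genes of the mitochondrial ribosome, a separate set of 78, had a used peak in 62.0% ± 6.06 of cases in Res499, 57.7% ± 3.85 in B16_IFNg and 62.0% ± 3.92 in B16_untreated, and 34 genes of the constitutive proteasome in 74.5% ± 4.49, 68.6% ± 6.12 and 67.6% ± 8.82. The shares of the cytosolic genes overlapped with those of the proteasome genes in each group.

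**Figure D1:**
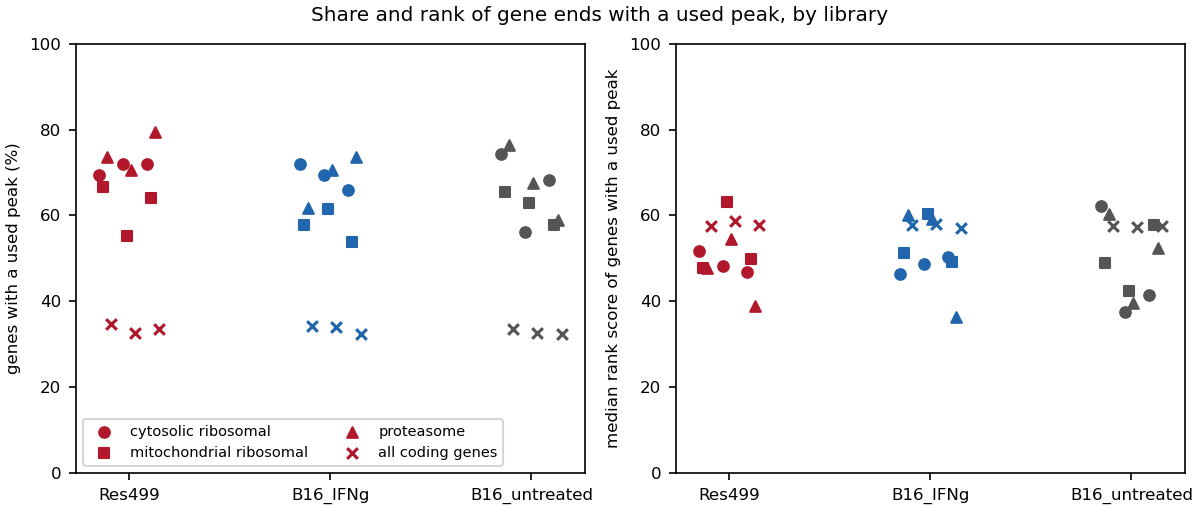
Left, the share of genes with a used peak (%), and right, the median rank score of the genes with a used peak, for the cytosolic ribosomal protein genes (circles), the mitochondrial ribosomal genes (squares), the proteasome genes (triangles) and all coding genes (crosses); each point is 1 library and the 3 groups stand side by side. The circles lie between 56.1% and 74.4% on the left, above all crosses, and 8 of the 9 circles lie below the crosses on the right.

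The set held a core with used peaks throughout and a wide margin with used peaks in only some libraries or in none. Used peaks were present in all 9 libraries at 28 of the 82 genes (34.1%), in 1 to 8 libraries at 47, and in none at 7 (8.54%), against 20.1% and 55.8% of coding genes with a used peak in all 9 and in none. The same shares were 35.3% and 8.82% for the proteasome genes and 32.1% and 11.5% for the mitochondrial ribosomal genes. For the 40 further translation genes described below they were 55% and 5%, so the pattern is not particular to this set. The core held 13 of 30 small subunit genes, 13 of 43 large subunit genes, Rplp0 of the 3 stalk genes and Rpl36al of the 6 paralogues. In the full lists 48 genes had a peak in all 9 libraries and 6 in none. Chromosome 7 carried 14 of the genes, of which 6 belonged to the core, and chromosome X carried 4, of which Rpl10 did.

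**Figure D2:**
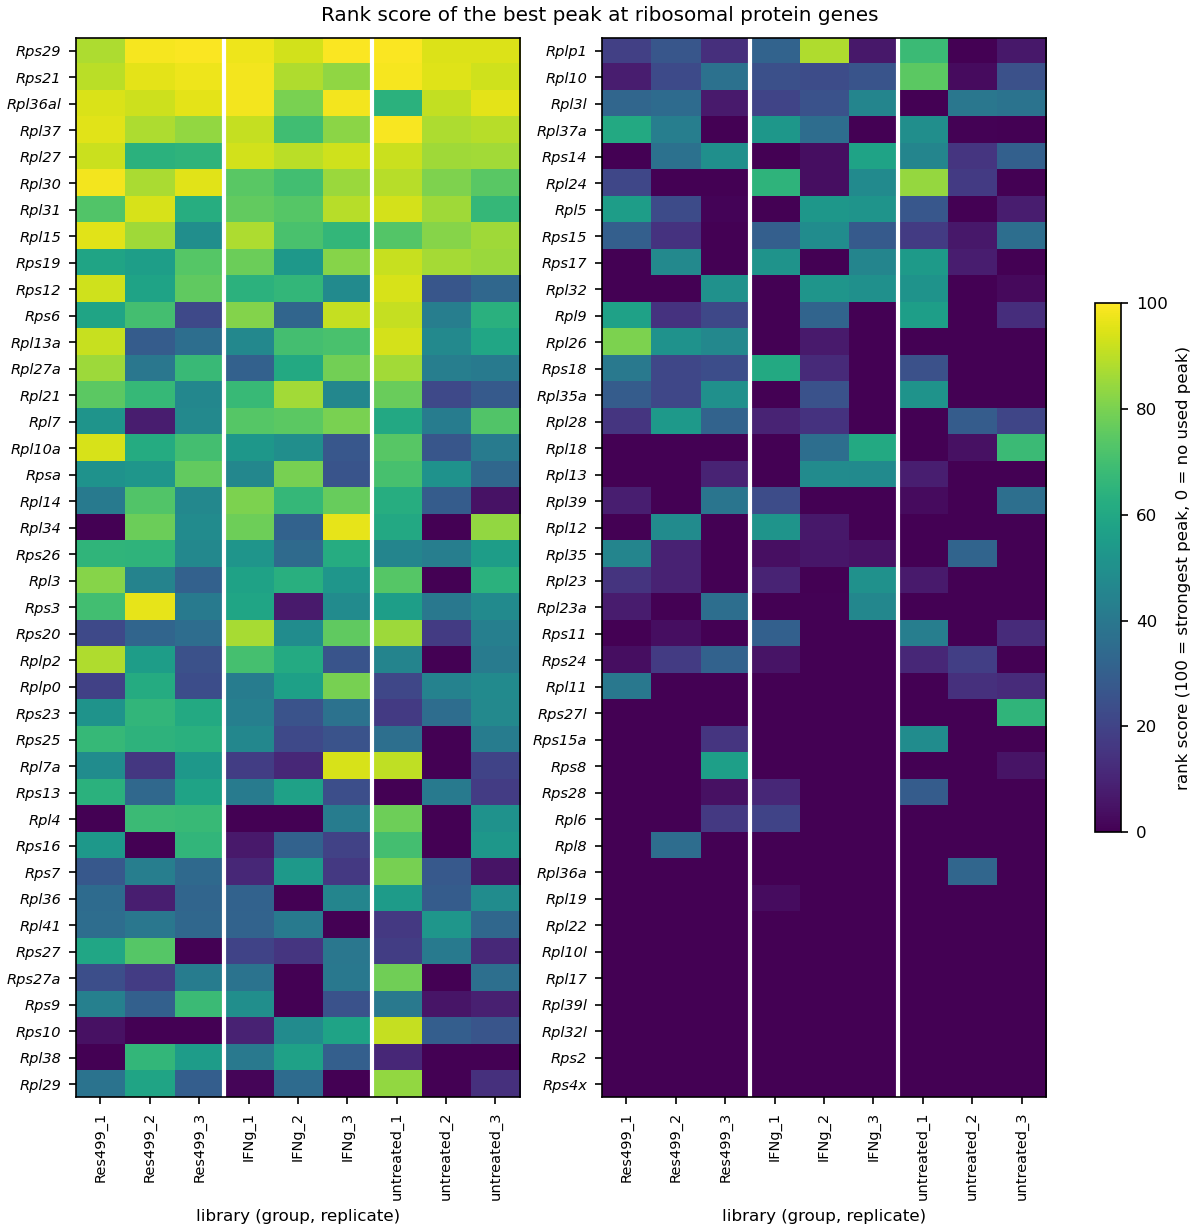
Rank score of the best used peak within 1 kb of a gene end for 80 of the 82 genes (rows, ordered by their mean over 9 libraries, from the top of the left panel to the foot of the right one) in the 9 libraries (columns, group and replicate; white lines part the groups); the colour scale runs from 0 (no used peak) to 100 (strongest peak). Rps29 and Rps21 are near 100 in all columns, most genes of the right panel have a score of 0 in some columns, and no block of genes changes as a whole at a white line.

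Among the small subunit genes, Rps29 and Rps21 stood highest. Rps29 (chr12:69157722-69159186) scored 87.7, 98.8 and 99.4 in Res499, 97.6, 93.2 and 99.5 in B16_IFNg, and 99.5, 94.9 and 94.7 in B16_untreated. Its peaks also lay at the end of Rn7s1, a small cytoplasmic RNA gene, so the signal cannot be given to Rps29 alone. Rps21 scored 89.7, 95.8 and 97.5 in Res499, 98.1, 88.2 and 83.5 in B16_IFNg, and 98.4, 95.2 and 92.8 in B16_untreated, and its peaks also reached a miRNA gene, Mir3091. In B16_untreated replicate 1 the Rps21 peak spanned chr2:180256772-180257492, which covers the whole printed stretch with its 2 CCGGAAG matches. Rps19, which is needed to mature the RNA of the small subunit and is mutated in human Diamond-Blackfan anaemia, had a used peak in all 9 libraries with a mean score of 73.8 ± 14.4 (SD).

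The large subunit genes with the highest mean scores over the 9 libraries were Rpl37 (87.4 ± 8.56, SD), Rpl27 (84.5 ± 11.6), Rpl30 (83.8 ± 9.91), Rpl31 (79.3 ± 11.7) and Rpl15 (77.4 ± 13.9). Rpl37 scored 95.6, 87.7 and 83.6 in Res499, 91.4, 69.3 and 82.7 in B16_IFNg, and 99.1, 87.8 and 89.2 in B16_untreated, so the groups overlapped. Rpl31 scored 72.7, 93.9 and 62.4 in Res499, 75.8, 73.5 and 89.3 in B16_IFNg, and 93.7, 85.6 and 66.7 in B16_untreated, with overlap again. The paralogue Rpl36al reached 89.96 ± 11.3 over the 9 libraries, and its peaks lay at the end of the coding gene Mgat2 as well. The strongest peaks of Rpl37 and Rpl15 likewise lay within 1 kb of an end of the coding genes Card6 and Nkiras1. Peaks shared with the end of another coding gene were not common in the set: they made up 19.6% to 28.8% of the used peaks of ribosomal protein genes per library, against 30.2% to 32.7% over all coding genes.

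The stalk genes had used peaks in most libraries with scattered ranks. Rplp0, the base of the stalk, scored 19.4, 61.4 and 23.8 in Res499, 41.8, 56.9 and 79.7 in B16_IFNg, and 21.1, 44.4 and 48.0 in B16_untreated. Rplp1 scored 18.98, 26.8 and 13.5 in Res499, 32.0, 87.9 and 6.54 in B16_IFNg, and 68.1, 0 and 6.38 in B16_untreated. Rplp2 scored 88.3, 55.9 and 24.8 in Res499, 70.6, 61.3 and 25.9 in B16_IFNg, and 45.3, 0 and 41.5 in B16_untreated. All 3 had a higher mean in B16_IFNg than in B16_untreated, with a median difference of 21.6 points of rank score, but the libraries of the groups overlapped for each of them.

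Some of these proteins have known duties outside the ribosome. Rpl5 and Rpl11, which bind the 5S RNA and can hold the p53 inhibitor Mdm2, had a used peak in 7 and in 3 libraries. Rpl11 scored 40.2, 0 and 0 in Res499, 0 in each B16_IFNg library, and 0, 13.9 and 12.3 in B16_untreated, and the stretch printed for it holds none of the marked motifs, although the 300-base window around its start, searched below, holds CCGGAAG. Rpsa, which is also known as a laminin receptor, had a used peak in all 9 libraries with a mean of 54.0 ± 18.3, and Rps27a, which is made as a fusion with ubiquitin, had one in 7 with a mean of 30.7 ± 24.1. Rpl10, which joins the large subunit late in its assembly, had one in all 9 with a mean of 27.2 ± 20.6. Rpl13a, which in human monocytes leaves the ribosome after exposure to interferon gamma and was picked here for that role, scored 91.7, 28.9 and 36.1 in Res499, 46.6, 70.1 and 71.2 in B16_IFNg, and 93.4, 47.1 and 59.2 in B16_untreated. Its groups overlapped in each comparison.

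At the lower end of the order, 7 genes had no used peak at their gene ends: Rps4x, Rps2, Rpl39l, Rpl32l, Rpl22, Rpl17 and Rpl10l. Rpl10l and Rpl39l, which are used mainly in testis, and Rpl32l had no peak in any full list. Rps4x, the X-linked small subunit gene, had no used peak and a peak in 3 full lists. In Res499 replicate 1 that peak was 149 bp wide, at chrX:102189317-102189465, with a fold enrichment of 5.29 over the local background by the authors' caller and rank 11057. Rpl3l, used mainly in heart and skeletal muscle, had a used peak in 8 libraries, but its summit lay 3854 bp (median) past the nearest listed start and at the end of Msrb1. At its own listed starts Rpl3l had no used peak in any library.

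Starts listed by RefSeq were matched to 62 of the 82 genes, and most peaks lay at them. Of 57 genes with both a listed start and a peak in a full list, 52 had their median summit within 1 kb of a start, at a median of -33.5 bp (negative values are upstream), with 41 of the 52 upstream and 47 within 200 bp. Across libraries the median distance for ribosomal protein genes with a used peak was -32 to -92 bp, against -34 to -46 bp for all coding genes, and the share of summits upstream was 65.9% to 94.4%, against 60.2% to 64.6%. The used peaks of the ribosomal protein genes were narrower than those of coding genes at large in each of the 9 libraries, with medians of 327 to 705.5 bp against 398 to 811 bp. The 5 genes with summits elsewhere were Rpl18, Rpl19, Rpl3l, Rpl4 and Rpl41; the peaks of Rpl19, Rpl4 and Rpl41 lay at the ends of Cacnb1, Snapc5 and Zc3h10. For some of these genes the site differed between libraries. The used peak of Rpl4 lay at its own start in Res499 replicate 3 (summit at -35 bp, score 67.4) and B16_IFNg replicate 3 (-162 bp, 41.8), and that of Rpl41 in Res499 replicate 2 (-23 bp, 39.5), so the scores of both mix 2 sites.

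**Figure D3:**
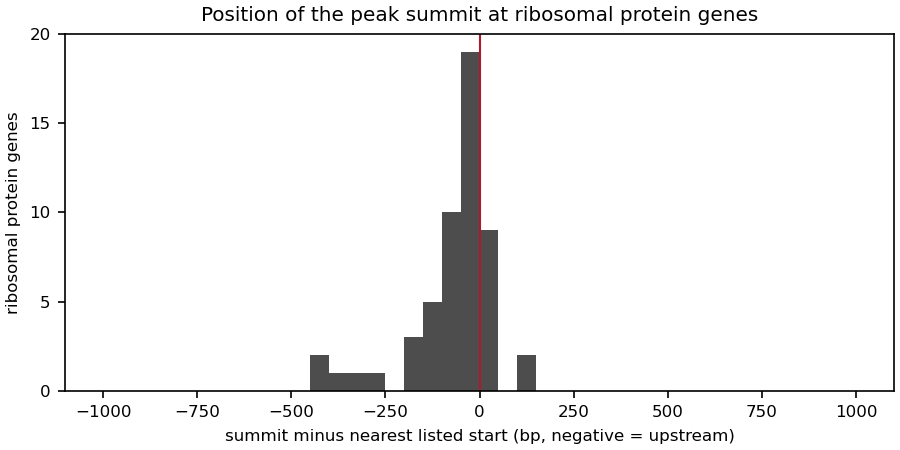
Number of ribosomal protein genes (vertical axis) by the distance in bp from the nearest listed start to the peak summit, as the median over the libraries with a peak (horizontal axis, bins of 50 bp, negative upstream; the line marks the start). The 52 genes within 1 kb gather just upstream of the start, and their median is -33.5 bp.

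For 6 genes a start listed by RefSeq lies more than 1 kb inside the annotated span: Rps2, Rps27l, Rpl18 and Rpl19 with all their listed starts, and Rpl22 and Rpl3l with 1 of 2. Rps2 and Rps27l had a used peak at a listed start in 8 libraries each, against 0 and 1 at the gene ends, Rpl22 in 7 against 0, Rpl19 in 3 against 1, Rpl18 in 2 against 4, and Rpl3l in 0 against 8. Counted at listed starts, 21 of the 62 genes (33.9%) had a used peak in all 9 libraries and 5 in none (8.06%), against 22.2% and 53.0% of 17492 coding genes. Those 5 were Rpl10l, Rpl32l, Rpl39l, Rpl3l and Rps4x. Rpl17 had no peak within 1 kb of its gene ends in any full list.

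No ribosomal protein gene passed the test across all genes in any comparison. limma was fitted to the rank scores of the 8421 coding genes with a used peak in at least 3 of the 9 libraries, among them 68 of the 82 ribosomal protein genes. These 68 passed a filter on peaks and are not the whole set; the other 14 have too few used peaks to be compared. At an adjusted p under 0.05 limma called 0 of the 68 and 0 of the 8421 (0%) in each of the 3 comparisons, in either direction. The smallest adjusted p of a ribosomal protein gene was 1 for B16_IFNg against B16_untreated, 0.738 for Res499 against B16_untreated and 0.549 for Res499 against B16_IFNg. The median spread between libraries of 1 group was 20.7 points of rank score for the 68 genes and 18.5 for all genes tested. As 3 libraries against 3 cannot reach p = 0.05 in an exact permutation test, genes whose libraries did not overlap between groups are given below as descriptions. B16_untreated is part of the first 2 comparisons and Res499 of the last 2, so the 3 are not independent.

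In B16_IFNg against B16_untreated the scores of Rpl14 and Rpl38 lay furthest apart. At an unadjusted limma p under 0.05, 3 of the 68 genes were higher in B16_IFNg (Rpl13, Rpl14 and Rpl38) against 2.3% of all genes tested, and 0 were lower against 1.53%. The libraries did not overlap for 3 genes that were higher (Rpl14, Rpl38 and Rpl7), against 5.24% of all genes, and for 1 that was lower (Rps19), against 3.97%. These shares are near those over all genes. The median difference was 1.89 points over the 68 genes, with 37 higher and 31 lower, against 0.63 points over all genes. No ribosomal protein gene was gained (a used peak in 3 libraries of the first group and 0 of the second) or lost, against 0.451% and 0.321% of all genes. With each library left out in turn, which makes a lack of overlap easier to reach, 11, 8 and 10 genes did not overlap without B16_IFNg replicates 1, 2 and 3, and 11, 11 and 6 without B16_untreated replicates 1, 2 and 3. The shares over all genes are not given for these runs, so the counts are not read as a result about this set.

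Rpl14 (chr9:120571517-120574653), a large subunit gene, scored 80.2, 66.6 and 76.8 in B16_IFNg and 62.2, 29.0 and 4.87 in B16_untreated. All B16_IFNg libraries stood above all B16_untreated libraries, and the group means differed by 42.5 points (SE 19.4, limma adjusted p = 1). Rpl38, which in mice is needed for the translation of Hox messenger RNAs, scored 40.3, 57.4 and 30.3 in B16_IFNg and 10.98, 0 and 0 in B16_untreated, a difference of 39.0 points (SE 18.6, limma adjusted p = 1). Rpl13 scored 0, 48.2 and 47.7 in B16_IFNg and 8.51, 0.293 and 0 in B16_untreated, and these overlap at the low end. Rpl21 and Rplp2 had the next largest positive differences, 24.0 and 23.7 points, and their libraries overlapped. The largest negative differences were those of Rpl4 (-29.0), Rps16 (-21.8), Rpl29 (-20.4) and Rpl36 (-18.5), each with overlap. For Rpl4 the direction turns at its own listed start, where B16_IFNg was 13.9 points above B16_untreated, for Rpl36 it turns when peaks are ranked by fold enrichment (7.7), and for Rpl29 it turns without B16_untreated replicate 1 (5.25).

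In Res499 against B16_untreated, Rpl26 was the ribosomal protein gene with the largest difference and the one gene gained. At an unadjusted limma p under 0.05, 1 of the 68 genes was higher in Res499 (Rpl26) against 3.48% of all genes tested, and 2 were lower (Rps10 and Rps19) against 3.21%. The libraries did not overlap for 3 higher genes (Rpl26, Rps23 and Rps25) against 6.18%, and for 2 lower genes (Rps10 and Rps19) against 5.52%. Gained was 1 gene of 68 against 0.891% of all genes, and lost were 0 against 0.76%. The median difference was 2.36 points over the 68 genes, with 37 higher and 31 lower, against 0.52 points over all genes. By subunit it was 4.65 points over 37 large subunit genes, of which 24 were higher, and -1.24 points over 26 small subunit genes, of which 11 were higher. With 1 library left out, 10, 9 and 10 genes did not overlap without Res499 replicates 1, 2 and 3, and 18, 10 and 7 without B16_untreated replicates 1, 2 and 3. Gained or lost genes numbered 2 without Res499 replicate 1 or 2 and 4 without B16_untreated replicate 1. Leaving a library out makes both easier to reach for every gene. As the shares over all genes are not given for these runs, the counts are not read as a result.

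Rpl26 (chr11:68901566-68904534) codes for a protein near the exit of the peptide tunnel of the large subunit, which in human cells also binds the messenger RNA of p53. Its rank score was 80.3, 51.1 and 46.5 in Res499, 0, 7.41 and 0 in B16_IFNg, and 0, 0 and 0 in B16_untreated. Every Res499 library stood above all 6 others, in both classes of shortest peak. A peak was called there in the other groups too: the full lists held one in 8 of the 9 libraries, all but B16_IFNg replicate 3. In the B16_untreated lists it ranked 9370, 10043 and 12317, past the 9214 peaks used, with fold enrichments of 5.08, 7.87 and 5.38 by the authors' caller, against ranks of 1815, 4508 and 4926 and folds of 8.08, 5.65 and 5.62 in Res499. In terms of rank the difference was 59.3 points for Res499 minus B16_untreated (SE 14.2, limma adjusted p = 0.738) and 56.8 points for Res499 minus B16_IFNg (SE 14.2, limma adjusted p = 0.549), so it did not pass the test in either comparison. The peak of Res499 replicate 1 spanned chr11:68901240-68901976 and covers the printed stretch, whose CTCGCGAG holds TCGCGAG and its reverse CTCGCGA in overlap.

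Rps25 (chr9:44407714-44410406), which human cells need for translation from viral internal entry sites, scored 66.8, 64.6 and 63.4 in Res499, 46.4, 22.0 and 25.5 in B16_IFNg, and 36.6, 0 and 42.2 in B16_untreated. All Res499 libraries stood above the 6 others. The Res499 mean was 38.7 points above that of B16_untreated (SE 19.2, limma adjusted p = 0.738) and 33.6 points above that of B16_IFNg (SE 19.2, limma adjusted p = 0.796). The Rps25 peaks also lay at the end of Trappc4, a coding gene of vesicle tethering. Rps23, a protein of the decoding centre, scored 51.6, 65.9 and 60.7 in Res499, 43.0, 25.5 and 37.7 in B16_IFNg, and 16.9, 35.6 and 47.2 in B16_untreated, with no overlap between Res499 and either other group. Rpl38, Rps13 and Rps9 had positive differences of 36.8, 32.2 and 29.1 points between Res499 and B16_untreated, and their libraries overlapped.

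Rps10 and Rps19 differed the other way. Rps10 (chr17:27630415-27635244), a small subunit protein that in human cells is marked with ubiquitin on stalled ribosomes, scored 4.54, 0 and 0 in Res499, 9.66, 48.3 and 57.8 in B16_IFNg, and 91.3, 29.8 and 26.3 in B16_untreated. All 3 Res499 libraries stood below all others; the difference was -47.6 points for Res499 minus B16_untreated (SE 19.7, limma adjusted p = 0.738) and -37.1 for Res499 minus B16_IFNg (SE 19.7, limma adjusted p = 0.787). Rps19 scored 58.6, 56.0 and 73.6 in Res499, 77.7, 53.3 and 82.0 in B16_IFNg, and 91.4, 86.7 and 84.9 in B16_untreated. At Rps19 all Res499 and B16_IFNg libraries stood below all B16_untreated libraries. The difference was -24.9 points for Res499 minus B16_untreated (SE 10.8, limma adjusted p = 0.738) and -16.7 for B16_IFNg minus B16_untreated (SE 10.8, limma adjusted p = 1). Rpl24, Rpl18 and Rpl7 had differences of -26.8, -24.2 and -22.8 points for Res499 minus B16_untreated with overlap, and at its listed start Rpl18 averaged 8.74 in Res499 and 8.70 in B16_untreated. For Rpl7 the difference was 0.81 when peaks were ranked by fold enrichment.

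**Figure D4:**
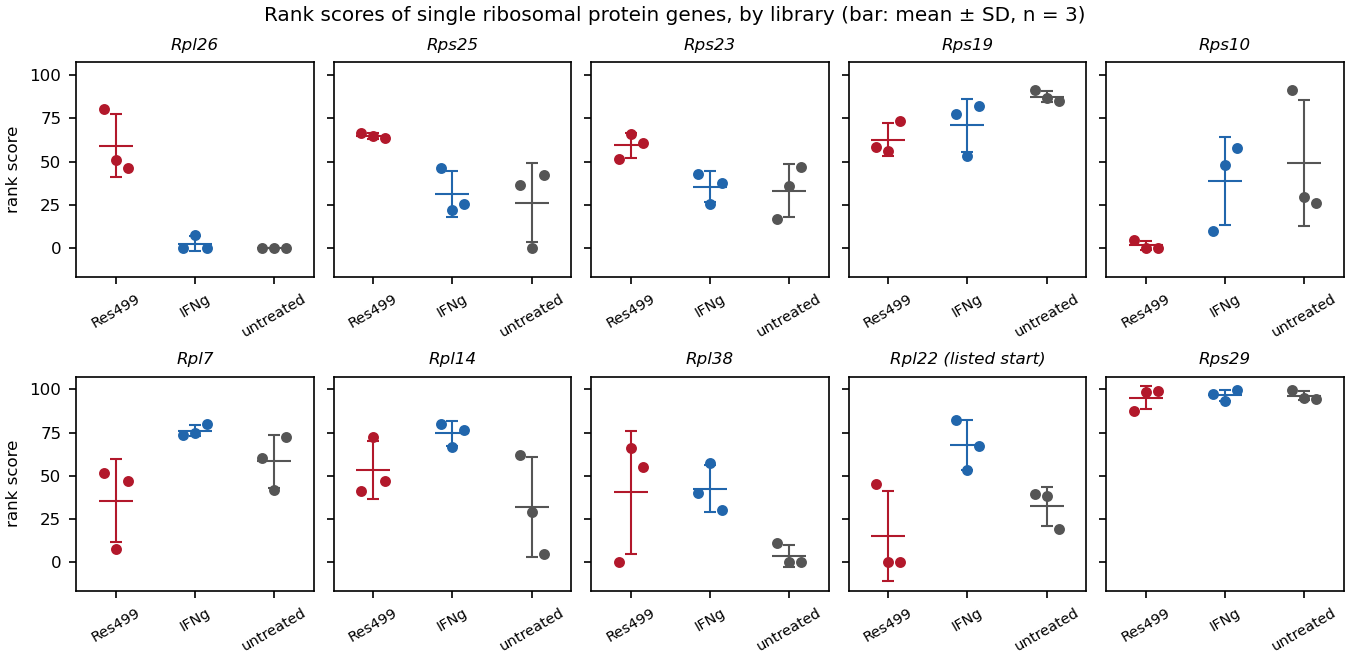
Rank score (vertical axis, 0 to 100) of 10 ribosomal protein genes in the 9 libraries; points are libraries, bars the mean ± SD of 3, and the groups run from Res499 through B16_IFNg to B16_untreated. Rpl26 is at 46.5 or more in the Res499 libraries and at 7.41 or less in the others, Rps10 is at 4.54 or less in Res499, and Rps29 is at 87.7 or more in all libraries; Rpl22 is shown at its listed start.

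In Res499 against B16_IFNg, Rpl26 again had the largest positive difference and Rpl7 the largest negative one. At an unadjusted limma p under 0.05, 2 of the 68 genes were higher in Res499 (Rpl26 and Rpl30) against 2.9% of all genes tested, and 3 were lower (Rpl13, Rpl27 and Rpl7) against 3.18%. The libraries did not overlap for 6 higher genes (Rpl10a, Rpl26, Rpl28, Rpl30, Rps23 and Rps25), 8.82% of the 68 against 4.96% of all genes. They did not overlap for 3 lower genes (Rpl7, Rps10 and Rps20), 4.41% against 5.08%. Over all genes these shares were larger in Res499 against B16_untreated, at 6.18% and 5.52%. No ribosomal protein gene was gained or lost between Res499 and B16_IFNg, against 0.475% and 0.582% of all genes. The median difference was 1.92 points over the 68 genes, with 35 higher and 33 lower, against -0.05 points over all genes; it was -1.02 over the large subunit genes and 6.06 over the small subunit genes. Without Res499 replicates 1, 2 and 3 the genes without overlap numbered 17, 16 and 15, and without B16_IFNg replicates 1, 2 and 3 they numbered 16, 22 and 11. Gained or lost genes numbered 2 without Res499 replicate 1 or B16_IFNg replicate 1 and 3 without B16_IFNg replicate 2. Again the shares over all genes are not given for these runs, and the counts are not read as a result.

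Rpl30, a large subunit protein, scored 98.2, 87.2 and 95.7 in Res499 and 74.3, 69.5 and 85.0 in B16_IFNg, a difference of 17.4 points (SE 6.81, limma adjusted p = 0.787) within the top of the lists. Rpl10a scored 93.8, 61.5 and 70.1 in Res499 and 53.1, 49.4 and 27.3 in B16_IFNg, a difference of 31.9 points (SE 18.8, limma adjusted p = 0.802). Both genes thus had all Res499 libraries above all B16_IFNg libraries without passing the test. Rpl7 scored 51.6, 7.89 and 47.1 in Res499 and 73.8, 74.8 and 79.9 in B16_IFNg, a difference of -40.6 points (SE 18.03, limma adjusted p = 0.787). Its strongest peak also lay within 1 kb of an end of the coding gene Rdh10, so the signal cannot be given to Rpl7 alone. Rps20, another protein marked with ubiquitin on stalled ribosomes in human cells, scored 21.9, 32.8 and 35.7 in Res499 and 86.8, 48.6 and 75.5 in B16_IFNg, a difference of -40.2 points (SE 20.6, limma adjusted p = 0.787). Rpl4, Rps3, Rpl18 and Rpl24 completed the largest differences, at 31.2, 31.0, -32.2 and -31.9 points, with overlap in each case. At its listed start Rpl18 averaged 8.74 in Res499, 0 in B16_IFNg and 8.70 in B16_untreated, so its direction between Res499 and B16_IFNg turns there. For Rpl24 the difference was 7.13 with a window of 2500 bp.

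Rpl22, a large subunit protein needed for the development of T cells in mice, enters these comparisons only at its listed start. There it scored 45.1, 0 and 0 in Res499, 82.5, 53.6 and 67.5 in B16_IFNg, and 39.2, 38.3 and 19.3 in B16_untreated. All B16_IFNg libraries stood above the 6 others, and this pattern was found after the values were seen. Rps2, at its listed start, scored 19.2, 9.63 and 20.02 in Res499, 52.3, 34.8 and 15.1 in B16_IFNg, and 6.97, 34.4 and 0 in B16_untreated, where the groups overlap. Rps27l, which p53 induces in human cells, scored 0, 66.3 and 41.3 in Res499, 43.4, 46.5 and 25.03 in B16_IFNg, and 60.7, 17.8 and 65.5 in B16_untreated, with overlap too.

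Some sequence features were more frequent in these promoters than in those of coding genes at large. Windows of 250 bases before and 50 after each listed start (74 windows of 62 genes) were searched on both strands, beside 21263 windows of all coding genes and 8516 of the coding genes tested. CCGGAAG was present in 35.1% of the ribosomal windows, 11.6% of all coding windows and 20.5% of the tested ones. It was also present in 34.7% of 75 windows of mitochondrial ribosomal genes and 36.7% of 30 windows of proteasome genes. TCGCGAG was present in 18.9% of the cytosolic ribosomal windows, against 2.60% of all coding and 4.57% of tested windows. Its share was 2.67% in the mitochondrial ribosomal and 3.33% in the proteasome windows. The ETS core was thus about as frequent in both ribosomal sets and the proteasome set. The CGCG element was more frequent in the cytosolic ribosomal set, and no test was run on these shares. AAGATGG, the core of YY1 sites, was present in 14.9%, against 6.24% of all coding and 7.76% of tested windows, and in 17.3% of the mitochondrial ribosomal and 20% of the proteasome windows. GGGCGG was present in 58.1%, against 46.2% of all coding and 67.2% of tested windows. CACGTG (the E-box of Myc) was present in 10.8%, against 7.84% and 10.3%, and CGCATGC (from NRF1 sites) in 6.76%, against 4.44% and 7.46%. TATAAA was present in 9.46%, against 12.6% and 6.07%. For the GC box, the NRF1 core and the TATA match the ribosomal windows thus lay between all coding and tested windows. These are matches of letters in a window, not bound sites.

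A run of at least 6 pyrimidines covered the listed start in 27.0% of the ribosomal windows, against 6.20% of all coding, 6.41% of tested and 2.67% of mitochondrial ribosomal windows. Listed starts can be a few bases off, which shortens such runs. The median GC content was 57.8%, against 56.3% of all coding and 62.0% of tested windows, and the median ratio of observed to expected CpG was 0.865, against 0.567 and 0.799. Within the set, the 7 genes with TATAAA in any window (Rpl22, Rpl32l, Rpl36a, Rpl39, Rplp0, Rps2 and Rps28) had a median mean score of 3.68, against 30.2 for the 55 without. However, 2 of the 7, Rpl22 and Rps2, are those with a score of 0 at the gene ends and used peaks at a listed start. For Rpl22 the match lies in the window of the listed start at the gene end, which had no peak, and not in that of the printed start. Genes with and without CCGGAAG had medians of 31.5 (25 genes) and 26.9 (37 genes), and genes with and without TCGCGAG had 26.9 (13 genes) and 28.9 (49 genes).

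**Figure D5:**
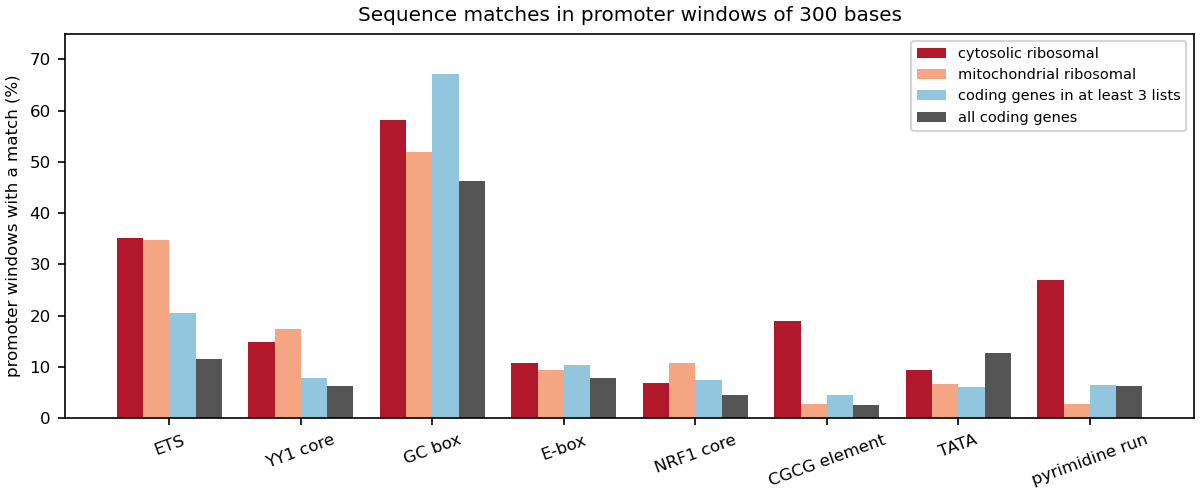
Share of promoter windows of 300 bases (%) with each sequence match, for the cytosolic ribosomal protein genes, the mitochondrial ribosomal genes, the coding genes with a used peak in at least 3 lists and all coding genes, as bars from left to right. The ETS core reaches 35.1% and 34.7% in the 2 ribosomal sets, and the proteasome windows (36.7%) are not drawn. The CGCG element (18.9%) and the pyrimidine run over the start (27.0%) are higher in the cytosolic set than in the other 3.

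The genes themselves were short and often carried small nucleolar RNA genes, which guide the modification of ribosomal RNA. Their median span was 3169.5 bp, against 17169 bp for all coding genes. Of the 82, 29 (35.4%) held at least 1 snoRNA gene inside their span, 58 such genes in all, against 1.70% of all coding genes. Genes with a snoRNA gene had a median mean score of 34.0, against 28.9 for the 53 without, and 12 of the 29 had a used peak in all 9 libraries, against 16 of the 53. Rpl4, with 5 snoRNA genes, and Rpsa, with 3, were among the hosts.

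None of the wider translation machinery passed the test. Of 40 further genes (translation factors, nucleolar proteins, regulators, and ribosomal protein genes with other names), 22 had a used peak in all 9 libraries, 35 were tested, and limma called 0 in each of the 3 comparisons, with none gained or lost. Rps3a1, a small subunit gene outside the naming rule, had a used peak in all 9 libraries with a mean score of 68.3, and Fau, which is made as a fusion of a small subunit protein with a ubiquitin-like protein, in 1 with 0.683. Rpl22l1, the paralogue of Rpl22, had one in all 9 with 71.3, Myc in 5 with 13.7, and Larp1, which binds TOP messenger RNAs, and Ubtf, a factor of ribosomal RNA transcription, in none. The median difference over the 35 genes was 0.48 points for B16_IFNg minus B16_untreated, 3.53 for Res499 minus B16_untreated and -2.02 for Res499 minus B16_IFNg.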

How the data were processed

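Peak lists from ATAC-seq were taken for 9 libraries, 3 each of Res499, B16_IFNg and B16_untreated. Per the submitters' processing notes, CASAVA, cutadapt 1.9, Bowtie2 2.2.4 and MACS2 were used on GRCm38 (mm10). No source used here gives the MACS2 settings or says whether reads were shifted for the transposase. The deposited files hold 1 list per library, and each peak has the authors' fold enrichment over local background (a ratio), −log10 p, −log10 q (lowest about 2) and score, used here to rank and describe peaks within a list.

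Within each list the peaks of chromosomes 1 to 19, X and Y were ranked by −log10 p, and the first 9214 were used. The rank score is 100 × (9214 + 1 − rank) / 9214 for the best peak within 1 kb of either gene end (RefSeq GRCm38.p6, no strand in the gene table), and 0 without one. limma 3.58.1 (R 4.3.3, eBayes with trend) was fitted to coding genes with a used peak in at least 3 libraries, with a mean per group and Benjamini-Hochberg adjustment. On simulated data this fit missed most of the planted shifts, so a lack of calls does not show a lack of difference. Alternatives were 4607 or all peaks, ranking by fold, windows of 500 and 2500 bp, filters of 1 or 9 libraries, the replicate number as a block, the class of shortest peak (150 bp) as a term, no trend, normal scores, each library left out and, added after the values were seen, windows at listed starts.

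The genes and lists were chosen with earlier results of these data known. Named are genes gained, lost or called, the 5 largest differences per direction and comparison, the 8 highest and 8 lowest mean scores, genes without any peak and 17 preset names, of which Rps4l is not a coding gene in the table. Others (such as Rpl13a, Rps23 and Rpl28) were chosen after their values were seen. A few genes of these lists are not reported here by name.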

Additional observations from a re-analysis of the deposited data

How the results depend on the processing

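limma called 0 ribosomal protein genes in each comparison under every alternative run, which is no sign of stability with 3 libraries a group. In the tally of alternatives, 492 of 497 single-gene differences kept their sign and 5 were reversed. Rpl18 at its listed start, with a used peak in 2 libraries, is not among these 5. Its Res499 mean there (8.74) was above those of B16_IFNg (0) and B16_untreated (8.70), against negative differences at the gene ends. Over all genes the calls were 0 except 1 for Res499 against B16_IFNg without Res499 replicate 1, so the range with a library left out is 0 to 1 there. The reversed values were 13.9 for Rpl4 at listed starts, 7.7 for Rpl36 ranked by fold and 5.25 for Rpl29 without B16_untreated replicate 1, within a range of -36.6 to 5.25 with each library left out (B16_IFNg minus B16_untreated), 0.81 for Rpl7 ranked by fold (Res499 minus B16_untreated) and 7.13 for Rpl24 with the 2500 bp window (Res499 minus B16_IFNg); the cause was not tested. In the order Res499, B16_IFNg and B16_untreated, the mean number of the genes with a peak was 28.33, 27.33 and 24.33 with 4607 peaks, 64.33, 67 and 73 with all peaks, and 44.67, 43 and 41 at listed starts, which cover 62 genes. It was 57 in Res499 ranked by fold, and 62.33 and 61.67 in Res499 and B16_IFNg with the 2500 bp window. Their median rank score was 39.81 in Res499 with 4607 peaks, 80.03, 78.32 and 76.22 in the 3 groups with all peaks, scaled to the longest list, and 55.55 in B16_IFNg ranked by fold. With 4607 peaks, 3 genes did not overlap for Res499 against B16_untreated and 5 for Res499 against B16_IFNg, and 2 were gained or lost in each of these comparisons. With all peaks 0 were gained or lost for Res499 against B16_untreated, where Rpl26 has peaks in the untreated lists, and 1 for B16_IFNg against B16_untreated ranked by fold. With each library left out, genes with a peak averaged 58 to 59 in Res499, 55.5 to 58 in B16_IFNg and 51 to 58.5 in B16_untreated. Their median scores were 47.53 to 49.95, 47.56 to 49.53 and 39.58 to 51.86 in those groups. Genes without overlap numbered 6 to 11 for B16_IFNg against B16_untreated, 7 to 18 for Res499 against B16_untreated and 11 to 22 for Res499 against B16_IFNg. Gained or lost genes numbered 0 to 2, 1 to 4 and 0 to 3 in the same comparisons. For the counts without overlap, gained or lost under these alternatives, the shares over all genes are not given. They are therefore not read as a result about the ribosomal protein genes.

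Same-numbered libraries of different groups were not treated as paired in the main test. The correlation of their deviations from group means over all genes tested was -0.0126 to 0.0672. For libraries with different numbers it was -0.0809 to 0.0724. These values do not settle whether the libraries were paired. With the replicate number as a block, limma called 0 ribosomal protein genes and 0 genes in all in each comparison. With the class of shortest peak as a term the smallest adjusted p of a ribosomal protein gene was 0.997, 0.803 and 0.571 for B16_IFNg against B16_untreated, Res499 against B16_untreated and Res499 against B16_IFNg. Ranks carry no read counts, depth per library is unknown, and the threshold of the 9214th peak is stricter in the B16_untreated lists than in the others.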
